A study of Drosophila melanogaster with 6 samples.

Results

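The 72 mitochondrial ribosomal protein genes described here were chosen by name, as every gene whose symbol in the deposited tables begins with mRpL (46 genes, large subunit) or mRpS (26 genes, small subunit), out of 14210 genes listed. Polyadenylated RNA was sequenced from 3 libraries of S2 cells in which CRISPR/Cas9 had been used to deplete Tailor (CG1091), called KO, and from 3 libraries of wild-type S2 cells, called WT. S2 cells are a cultured Drosophila melanogaster line of embryonic origin with features of hemocytes, the blood cells of the fly, and Tailor is a uridylyltransferase, which extends the 3' ends of RNAs with uridine. The labels call the KO libraries biological replicates, do not say how many edited clones they represent, and do not say that the WT libraries came from separate cultures, so p-values measure only the spread among the 6 libraries and that spread may be technical.

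The mitochondrial ribosome translates the few messenger RNAs that the mitochondrial genome encodes, all of them for subunits of the respiratory chain and the ATP synthase. Its ribosomal RNAs come from that genome, whereas all its proteins are encoded in the nucleus, made in the cytosol and imported. As in bacteria, the ribosome has a small subunit, which reads the messenger RNA, and a large subunit, which joins the amino acids. Many of the proteins have bacterial counterparts and others were added during mitochondrial evolution. By convention the lower numbers in the symbols mostly belong to proteins shared with bacteria.

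Levels are in FPKM, in which the fragments of a gene are divided by the length of its transcripts and by the size of the library. The deposited confidence bounds let fragment numbers be worked back, and these totalled 18411809 to 22536308 in KO libraries and 20896005 to 22957816 in WT libraries. A single member rested on 56 to 5051 recovered fragments in a library, for a counting error of 13.4% down to 1.41%, which leaves out every other source of error. CG1091 stood at 22.3, 26.1 and 26.1 FPKM in KO libraries and at 50.7, 51.2 and 47.7 FPKM in WT libraries, so its mRNA was present in both groups and lower in every KO library. The hemocyte genes srp, ush and crq were well above the filter in both groups, while Hml averaged 1.52 FPKM in KO and 0.398 FPKM in WT libraries and nimC1 was near 0. Of the 7 hemocyte genes 5 were tested, of which srp, ush, crq and eater rose and Pxn fell, and the summed level of all 7 was 389.0, 396.1 and 398.2 FPKM in KO libraries and 320.7, 331.2 and 335.8 FPKM in WT libraries; the part of this shift in the results below was not tested. Of 6 markers of other cells, Mhc, Lsp2, Fbp1, tj and vas were at or near 0. The marker elav, which lies within the span of another gene, averaged 10.5 FPKM in KO and 8.23 FPKM in WT libraries. It was called higher (log2 0.32, limma adjusted p = 0.00152).

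All 72 members were expressed. None was listed at 0 in any library and all passed the filter of a mean of 1 FPKM, so no member is missing from the counts below. Mean levels ran from 8.17 FPKM (mRpS18C) to 90.7 FPKM (mRpL28) in KO libraries, an 11.1-fold range, and from 13.1 FPKM (mRpL54) to 197.5 FPKM (mRpL28) in WT libraries, a 15.1-fold range. Most lay much closer together: 42 genes averaged 20 to 40 FPKM in KO and 46 did so in WT. The median member was at 25.7 FPKM in KO and 31.2 FPKM in WT libraries. The order of levels was largely kept, with a Spearman rho of 0.906 between the group means, given across 72 genes that share libraries as a description.

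Transcripts of the mitochondrial ribosome were lower in the KO cells as a majority pattern, in both subunits. In limma, at a Benjamini-Hochberg adjusted p under 0.05 over all 7259 tested genes, 49 of the 72 members (68.1%) fell, 3 rose and the other 20 did not pass. Over all tested genes, 32.1% fell and 30.1% rose. The median log2 change of the members was -0.31, beside -0.01 for all tested genes, and 65 of the 72 had a negative value. Changes are KO over WT on the log2(FPKM + 1) scale. Every KO library lay below every WT library in 48 members, a pattern found in 34.5% of tested genes, and above every WT library in 3, found in 32.9%. Most falls were modest: 9 members fell at least 1.5-fold, as did 5.54% of tested genes, and 2 fell at least 2-fold, as did 1.56%. In bulk RNA, fewer cells of a kind and less RNA per cell cannot be told apart.

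**Figure D1:**
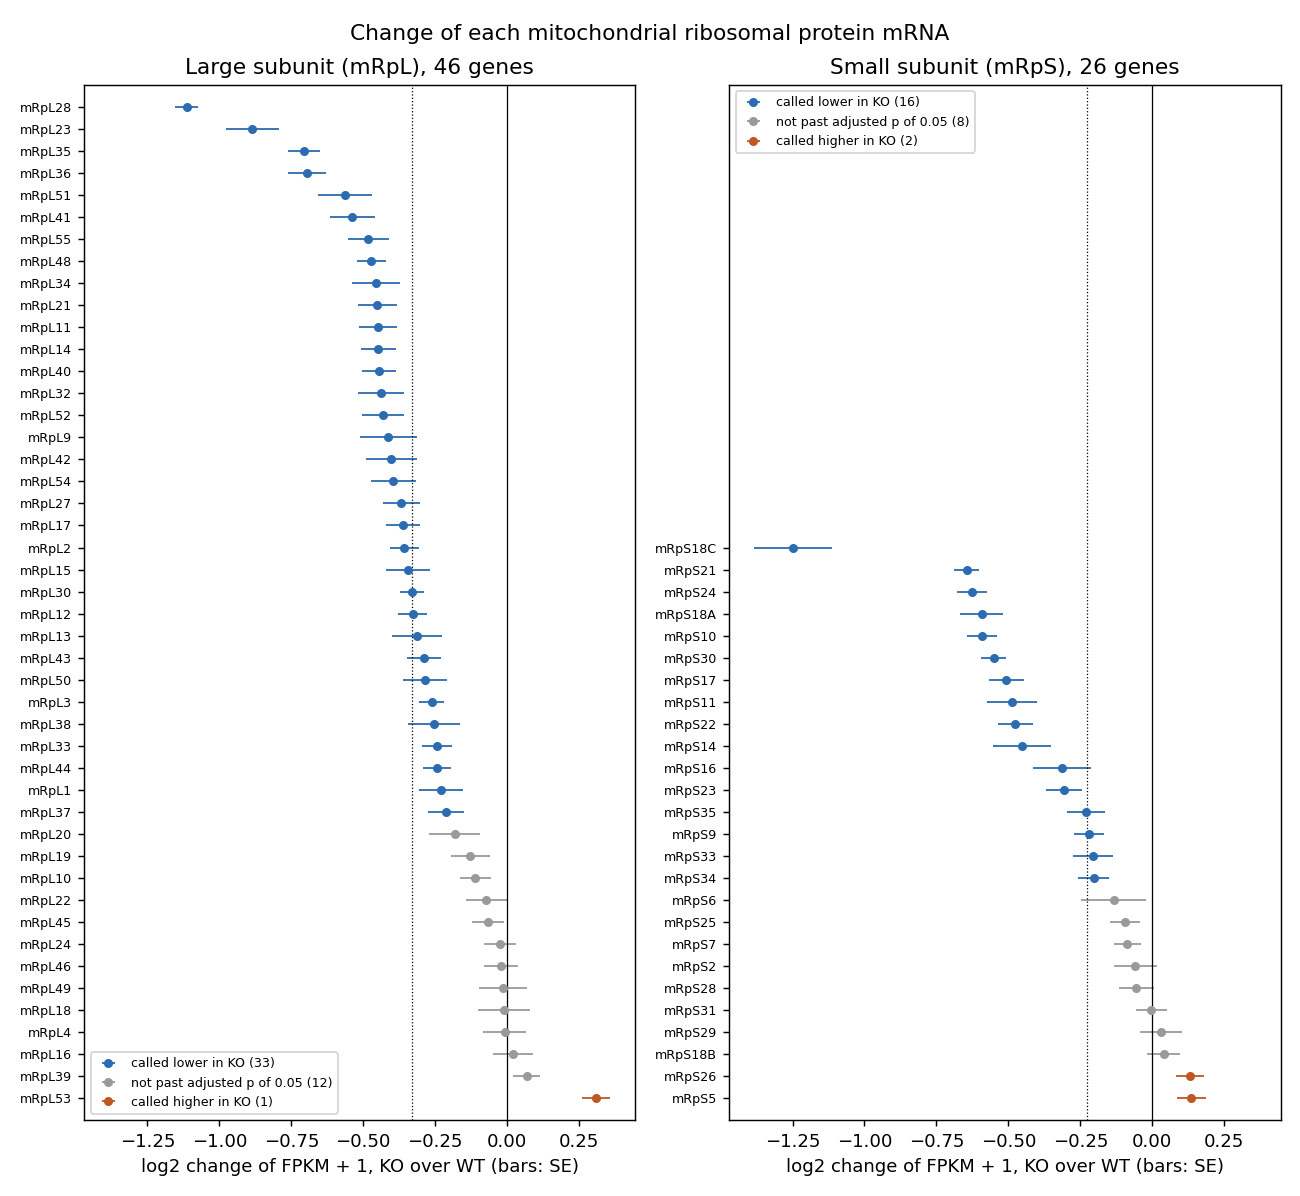
Log2 change of FPKM + 1, KO over WT, for each of the 72 mitochondrial ribosomal protein genes with its SE, ordered within the large subunit (left) and the small subunit (right). Blue points are genes called lower, orange ones called higher and grey ones not past an adjusted p of 0.05 in limma; the dotted line is the subunit's median (-0.33 for the large and -0.23 for the small subunit).

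Both subunits had more falls than rises. The large subunit held 33 falls and 1 rise among its 46 genes, and 12 of its genes did not pass (median log2 change -0.33). The small subunit held 16 falls and 2 rises among its 26 genes, and 8 did not pass (median -0.23). Summed over its 46 genes, the large subunit took 2043, 2023 and 2009 ppm of all FPKM in KO libraries, against 2504, 2492 and 2437 in WT libraries. The small subunit took 1231, 1256 and 1240 ppm in KO libraries and 1456, 1403 and 1466 in WT libraries. In ppm the KO means were 18.3% and 13.8% below those of WT. In the unscaled FPKM used for the fit, the KO means were 23.1% and 18.9% below. All FPKM summed to 621110 to 656344 in KO libraries and to 665278 to 677330 in WT libraries. The most abundant member, mRpL28, weighed on the large subunit's sum. It averaged 90.7 FPKM in KO and 197.5 FPKM in WT, within mean sums of 1282 and 1668 FPKM. Sums without mRpL28 were not computed. Neither subunit's sums overlapped between the groups. In mean log2 level, in which each gene counts alike, the balance between the subunits showed no such separation. The ratio of the subunits' sums, on which abundant genes such as mRpL28 weigh more, was not computed, so its separation is not known here. The mean log2 level of large subunit genes minus that of small subunit genes was -0.11, -0.16 and -0.12 in KO libraries and -0.12, -0.07 and -0.15 in WT libraries, so the groups overlapped. In the mammalian mitochondrial ribosome the counterparts of mRpS18A and mRpS30 sit in the large subunit. Counting these genes there gives 35 of 48 large and 14 of 24 small subunit genes lower, with medians of -0.34 and -0.21.

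**Figure D2:**
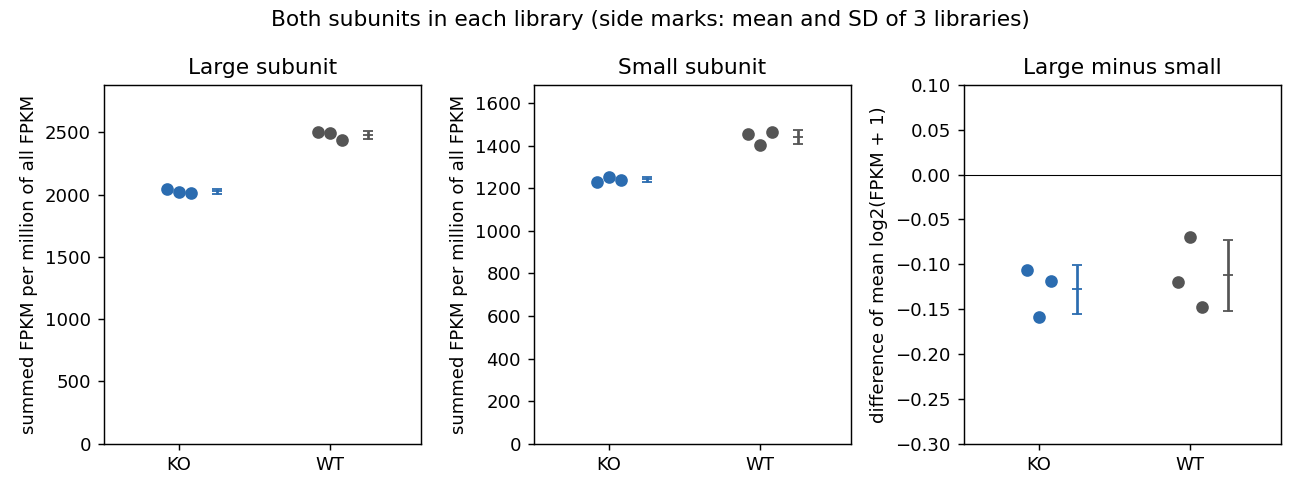
Summed FPKM of the large (left) and small (middle) subunit genes in ppm of all FPKM, and the difference of their mean log2(FPKM + 1) levels (right), in each library, with the mean and SD of the 3 libraries of a group at the side. KO sums lie at 2009 to 2043 and 1231 to 1256, below all WT sums, while the differences of the groups overlap.

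Splitting each subunit by number gave much the same counts. Of the 28 large subunit genes numbered up to 36, mostly shared with bacteria, 20 fell and 0 rose (median log2 change -0.34), and of the 18 numbered 37 and above 13 fell and 1 rose (median -0.29). In the small subunit 9 of 14 genes numbered up to 21 fell and 1 rose (median -0.38), and 7 of 12 numbered 22 and above fell and 1 rose (median -0.20). No test was made between these classes.

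The large subunit gene with the highest level was also the one that fell furthest. mRpL28 (FBgn0031660, chromosome 2L, 4973976 to 4975316 in the files' own coordinates) encodes a protein of the bacterial L28 family. It stood at 91.8, 90.2 and 90.1 FPKM in KO libraries and at 204.2, 199.2 and 189.1 FPKM in WT libraries. The KO values lay within 2 FPKM of one another and far below every WT value. Its mean was 90.7 ± 0.957 FPKM in KO and 197.5 ± 7.70 FPKM in WT (SD, n = 3 each), and the log2 change was -1.11 with an SE of 0.040 (limma adjusted p = 1.7e-09). In the authors' deposited table the log2 change was -1.15 after turning its sign to KO over WT. Its span overlaps that of the gene Gmd on the other strand by 17 nt, and Gmd had a log2 change of -0.07 (limma adjusted p = 0.23).

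The next largest falls in this subunit were in mRpL23, mRpL35 and mRpL36. mRpL23, whose bacterial relative lies at the exit of the peptide tunnel, had 27.2, 34.6 and 26.9 FPKM in KO libraries and 60.8, 53.9 and 51.0 FPKM in WT libraries (log2 -0.88, SE 0.092, limma adjusted p = 1.07e-05). KO library 2 was the highest of its group and still below the lowest WT library. mRpL23 has 4 listed start site identifiers, so its level may depend on how fragments were divided among several transcripts. It overlaps CG8993 by 33 nt, a gene with a log2 change of -0.49. mRpL35 had 15.4, 15.7 and 16.5 FPKM in KO libraries and 25.1, 27.6 and 26.8 FPKM in WT libraries (log2 -0.71, limma adjusted p = 1.17e-06). mRpL36, which encodes one of the smallest ribosomal proteins in bacteria, had 27.3, 23.5 and 24.8 FPKM in KO libraries and 42.6, 43.6 and 38.1 FPKM in WT libraries (log2 -0.70, limma adjusted p = 5.67e-06). Neither gene's groups overlapped.

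The stalk of the large subunit, which recruits translation factors, is built from mRpL12 on a base of mRpL10. mRpL12, the second most abundant member, averaged 79.1 ± 5.34 FPKM in KO and 99.5 ± 2.72 FPKM in WT (SD, n = 3 each) and fell (log2 -0.33, limma adjusted p = 0.000205). mRpL10 had 30.36, 34.32 and 32.84 FPKM in KO libraries and 34.21, 35.97 and 35.18 FPKM in WT libraries, which overlapped, and did not pass (log2 -0.11, limma adjusted p = 0.0951). A p that misses the threshold does not show equal levels, and without KO replicate 2 mRpL10 was called lower (log2 -0.15, limma adjusted p = 0.0338, 0.0338 to 0.553 over its alternatives). The difference between the changes of the stalk genes was not tested. mRpL33 averaged 53.7 ± 2.18 FPKM in KO and 63.8 ± 3.79 FPKM in WT (SD, n = 3 each) and was called lower (log2 -0.24, limma adjusted p = 0.00186). With the trend on exon length subtracted, the direction of mRpL33 turned (log2 0.01, limma adjusted p = 0.873, 0.000948 to 0.873 over its alternatives).

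The other 27 large subunit genes called lower had log2 changes between -0.56 (mRpL51) and -0.21 (mRpL37). Among the 12 that did not pass, values ran from -0.18 (mRpL20) to 0.07 (mRpL39). mRpL39 kept a level of 53.0, 53.8 and 49.0 FPKM in KO libraries beside 48.7, 49.8 and 49.9 FPKM in WT libraries. mRpL16, whose bacterial relative helps to position transfer RNA, averaged 30.7 ± 3.25 FPKM in KO and 30.2 ± 0.953 FPKM in WT (SD, n = 3 each). Both sets of values overlapped between the groups, and with the trend on exon length subtracted mRpL39 was called higher (log2 0.17, limma adjusted p = 0.00428, 0.00428 to 0.595 over its alternatives).

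**Figure D3:**
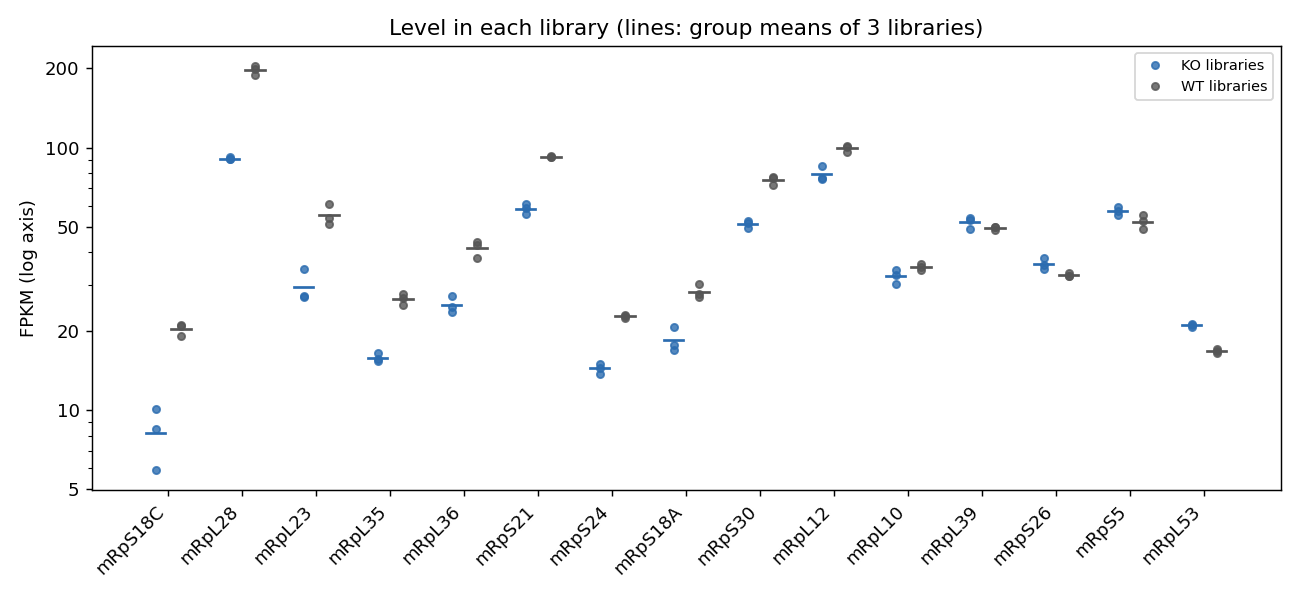
FPKM on a log axis of 15 named genes in each KO library (blue, left of each pair) and each WT library (grey, right), with a line at the group mean. The first 10 genes, from mRpS18C to mRpL12, have every KO value below every WT value; mRpL10 and mRpL39 overlap; mRpS26, mRpS5 and mRpL53 have every KO value above every WT value.

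In the small subunit, the copies of mRpS18 had different values. Animal mitochondrial ribosomes carry 3 relatives of the single bacterial S18 protein. mRpS18C (FBgn0039765, chromosome 3R, 26249696 to 26250278) had 8.48, 10.1 and 5.92 FPKM in KO libraries and 20.8, 21.1 and 19.2 FPKM in WT libraries. The highest KO value was well under the lowest WT value. The log2 change was -1.25 with an SE of 0.14 (limma adjusted p = 1.57e-05), the furthest below 0 of all 72 members, and rested on 56 to 111 recovered fragments per KO library and 210 to 214 per WT library. mRpS18A had 17.7, 20.7 and 16.9 FPKM in KO libraries and 30.2, 26.9 and 27.7 FPKM in WT libraries, without overlap (log2 -0.59, limma adjusted p = 4.67e-05). mRpS18B had 22.2, 25.2 and 23.1 FPKM in KO libraries and 22.7, 23.2 and 22.5 FPKM in WT libraries, which overlapped, and did not pass (log2 0.04, limma adjusted p = 0.557). With the length trend subtracted mRpS18B was called higher (log2 0.19, limma adjusted p = 0.00382, 0.00382 to 0.877 over its alternatives). mRpS18A and mRpS18C were thus called lower and mRpS18B was not, and the differences between copies were not tested. mRpS18C overlaps CG15536 on the other strand by 58 nt, and CG15536 also fell (log2 -0.61, limma adjusted p = 2.01e-05).

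Other small subunit genes with large falls came from both number classes. mRpS21 averaged 58.6 ± 2.64 FPKM in KO and 92.1 ± 0.583 FPKM in WT (SD, n = 3 each), a log2 change of -0.65 (limma adjusted p = 3.3e-07). mRpS24 had 15.0, 13.7 and 14.5 FPKM in KO libraries and 23.0, 22.5 and 22.9 FPKM in WT libraries (log2 -0.63, limma adjusted p = 2.28e-06). It overlaps CG6182 on the other strand by 411 nt, a gene that averaged 11.5 FPKM in KO and 12.4 FPKM in WT (log2 -0.11, limma adjusted p = 0.292). The use of strand in counting is not given, so the value of mRpS24 is uncertain. mRpS30, whose mammalian counterpart was first known as an apoptosis-related protein, averaged 51.1 ± 1.54 FPKM in KO and 75.4 ± 2.64 FPKM in WT (SD, n = 3 each), with a log2 change of -0.55 (limma adjusted p = 1.46e-06). mRpS22 had 47.2, 53.5 and 45.1 FPKM in KO libraries and 70.3, 66.2 and 67.1 FPKM in WT libraries (log2 -0.48, limma adjusted p = 4.74e-05). In each of these 4 genes all KO libraries were below all WT libraries. mRpS30 is also the longest member by the BDGP6 annotation, at 2078 nt of exon. Its span in the files' coordinates, 15680086 to 15682072, is shorter than that. The other 10 small subunit genes called lower had log2 changes from -0.59 (mRpS10) to -0.20 (mRpS34).

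Members that did not pass included well-known proteins of the small subunit. mRpS29, whose mammalian counterpart DAP3 is a GTP-binding protein linked to cell death, had 20.24, 24.96 and 21.09 FPKM in KO libraries and 21.86, 20.97 and 21.73 FPKM in WT libraries (log2 0.03, limma adjusted p = 0.726). mRpS31 averaged 21.6 ± 0.369 FPKM in KO and 21.7 ± 1.17 FPKM in WT (SD, n = 3 each). The groups of both genes overlapped. The 8 small subunit genes that did not pass had log2 changes between -0.13 (mRpS6) and 0.04 (mRpS18B).

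The 3 members called higher rose little. mRpL53 had 20.7, 21.3 and 21.2 FPKM in KO libraries and 16.9, 17.1 and 16.5 FPKM in WT libraries, a rise without overlap (log2 0.31, SE 0.049, limma adjusted p = 0.000238). The whole span of mRpL53 lies within AGO1, on the other strand, and it shares 1172 nt of span with CG33155 on its own strand, a gene that averaged 2.76 FPKM in KO and 0.578 FPKM in WT (log2 1.36, limma adjusted p = 0.000712). Fragments of these genes may not be separable, so the value of mRpL53 is uncertain, and the authors' deposited table used here gave none for it. mRpS26 had 37.8, 35.6 and 34.5 FPKM in KO libraries and 32.5, 33.2 and 32.6 FPKM in WT libraries (log2 0.13, limma adjusted p = 0.0347). mRpS5, whose bacterial relative lines the entry of the messenger RNA channel, had 57.4, 55.6 and 59.5 FPKM in KO libraries and 49.2, 55.3 and 52.3 FPKM in WT libraries (log2 0.14, limma adjusted p = 0.0384). The rise of mRpS26 was lost under 7 of 16 alternatives (adjusted p 0.000589 to 0.319) and that of mRpS5 under 8 of 16 (adjusted p 0.00969 to 0.14), so these calls are marginal. The mRpS26 call was lost without KO replicate 1 or without any single WT library, and the mRpS5 call without KO replicate 1 or 3 or without WT replicate 1 or 3. No listed member was higher at an adjusted p under 0.05 in the authors' deposited table, where 17.7% of all listed genes were, and 1 had a positive change at an unadjusted p under 0.05 there, beside 3 called in limma.

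That deposited table, in which 18.3% of 11643 genes were lower in KO at an adjusted p under 0.05, called 30 of 45 listed large subunit genes and 13 of 26 small subunit genes lower. All 30 and all 13 were called lower in limma as well. Its median log2 changes were -0.34 and -0.24 with the sign turned to KO over WT. It was made from the same libraries and is another processing of them, not a replication.

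Most members had a short transcript, and short transcripts were lower in the KO libraries in general. Exon length, taken from the BDGP6 annotation and known for all 72, had a median of 783 nt, beside 1700 nt over all listed genes with a length. These lengths need not be those behind the FPKM values. For instance, mRpL21 has 1696 nt of exon there but spans only 19247334 to 19248157 in the files' coordinates, so its length group is uncertain. Of 10 equal groups of tested genes by exon length, the shortest (59 to 862 nt) held 42 members, the next (863 to 1168 nt) 17 and the one after it (1169 to 1456 nt) 10. In the shortest group 34 of the 42 members fell and 2 rose, with a median log2 change of -0.42, beside 50.2% of the other genes falling and a median of -0.18. Among lengths of 863 to 1168 nt 6 of 17 members fell, with a median of -0.09, beside 41.1% of the other genes and a median of -0.10. Among lengths of 1169 to 1456 nt 7 of 10 fell, with a median of -0.22, beside 37.7% and -0.10. The median of the members was thus below that of other genes in the shortest group and at 1169 to 1456 nt, and close to it at 863 to 1168 nt. By subunit, 22 of 26 large and 12 of 16 small subunit genes fell in the shortest group, and 5 of 13 large and 1 of 4 small subunit genes fell at 863 to 1168 nt.

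**Figure D4:**
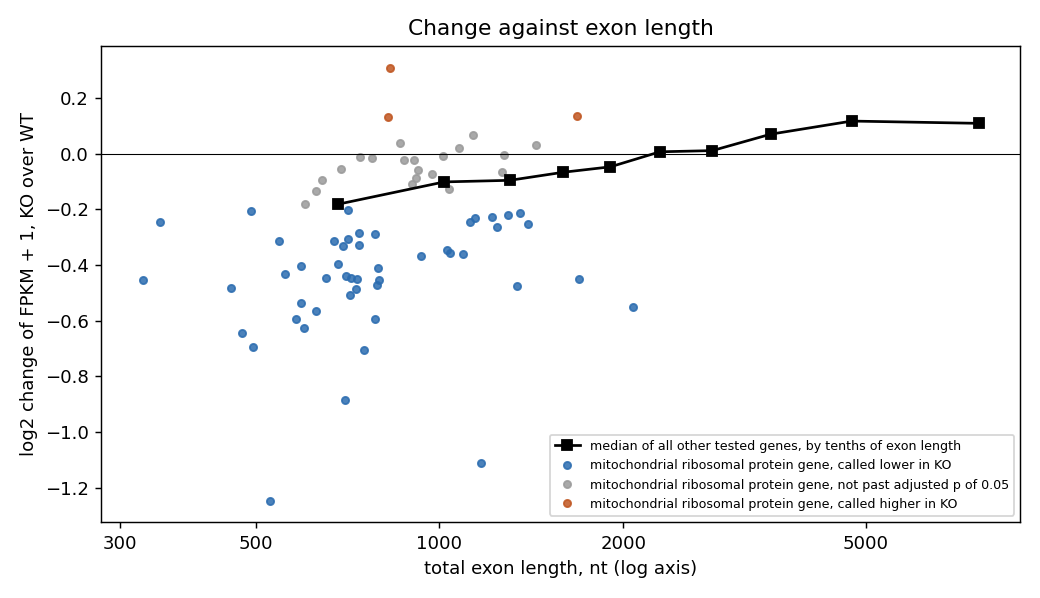
Log2 change of FPKM + 1, KO over WT, against total exon length in nt on a log axis. Circles are the 72 mitochondrial ribosomal protein genes, coloured by their call, and squares joined by a line are the medians of all other tested genes in 10 groups of exon length, which run from -0.18 in the shortest group to 0.11 in the longest.

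With a smooth trend on exon length subtracted from each library before the fit, the medians came to -0.17 for the large and -0.12 for the small subunit, nearer to 0 than without it. Of the 49 members called lower, 37 were still called lower (26 large and 11 small), 12 were not, and 0 were gained, while 5 members were called higher. Of the 7 largest falls, mRpS18C then stood at -1.04, mRpL28 at -1.01, mRpL23 at -0.71, mRpL35 at -0.54, mRpL36 at -0.48, mRpS24 at -0.43 and mRpS21 at -0.42. The longest member, mRpS30, stood at -0.53. In that fit 30.3% of all genes with a length were called lower. Other tested genes within the members' whole ranges of exon length (327 to 2078 nt) and mean level (11.4 to 144.1 FPKM) numbered 2026, of which 43.7% fell and 20.9% rose, with a median log2 change of -0.10. What sets the trend on length in these libraries was not tested.

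Genes for the cytosolic ribosome, which makes all nuclear-encoded proteins, also fell in most cases: 68 of 87 tested (78.2%), beside 32.1% of all tested genes. In the mitochondrial set the median log2 changes were -0.42 in the shortest group, -0.09 at 863 to 1168 nt and -0.22 at 1169 to 1456 nt. Of the cytosolic ribosomal protein genes, 31 of 38 fell in the shortest group (median -0.23), 19 of 24 at 863 to 1168 nt (median -0.26) and 16 of 20 at 1169 to 1456 nt (median -0.29). The shares of genes outside the mitochondrial set that fell in these groups were the 50.2%, 41.1% and 37.7% given above. These counts are a description and no test was made between the sets.

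The mitochondrial ribosome has small subunit genes that carry other symbols, of which tko and bonsai were looked up by name, and both fell. Other such genes were not searched for. The gene tko (technical knockout), which encodes the decoding-site protein S12 and gives bang-sensitive flies when mutated, had 18.3, 20.8 and 21.6 FPKM in KO libraries and 46.9, 47.0 and 48.6 FPKM in WT libraries. Its values were far apart between the groups (log2 -1.20, SE 0.060, limma adjusted p = 3.05e-08), a change close to that of mRpS18C. The gene bonsai, for the S15 protein, averaged 25.5 ± 0.752 FPKM in KO and 31.2 ± 1.65 FPKM in WT (SD, n = 3 each; log2 -0.28, limma adjusted p = 0.000887).

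Of 9 tested translation factor genes of the mitochondrion, 3 were called lower (33.3%) and 2 higher (22.2%), near the 32.1% and 30.1% of all tested genes, and the median log2 change was -0.10. The initiation factor gene mIF2 (CG12413), which brings the first transfer RNA to the ribosome, rose furthest, with 11.9, 12.5 and 12.1 FPKM in KO libraries and 4.42, 4.88 and 4.78 FPKM in WT libraries (log2 1.21, SE 0.066, limma adjusted p = 6.06e-08). The elongation factor gene mEFTs (CG6412), for the nucleotide exchange factor of EF-Tu, fell (log2 -0.27, limma adjusted p = 0.000481). The recycling factor gene EF-G2 (mRRF2) also fell, averaging 3.49 ± 0.361 FPKM in KO and 4.69 ± 0.392 FPKM in WT (SD, n = 3 each; log2 -0.34, limma adjusted p = 0.0072). Marginal calls were the rise of mEFTu2 (CG12736, log2 0.21, limma adjusted p = 0.0156) and the fall of the release factor gene mRF1 (CG5705, log2 -0.33, limma adjusted p = 0.0157). Each was lost under 3 of 16 alternatives, with adjusted p of 0.00251 to 0.062 and 0.0075 to 0.065, among them without KO replicate 2 or WT replicate 2 for mEFTu2 and without KO replicate 1 or WT replicate 2 for mRF1.

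Of 14 mitochondrial tRNA synthetase genes, which charge the transfer RNAs this ribosome uses, 7 were called lower and 1 higher, beside 32.1% and 30.1% of all tested genes, and the median log2 change was -0.20. MetRS-m (Aats-met) averaged 7.32 ± 0.492 FPKM in KO and 12.2 ± 0.821 FPKM in WT (SD, n = 3 each; log2 -0.67, limma adjusted p = 1.34e-05). ArgRS-m (CG10092) fell by 0.57 on the log2 scale, GluRS-m (CG4573) by 0.53, ValRS-m (CG5660) by 0.47 and TyrRS-m (CG16912) by 0.28. The 1 that rose, AspRS-m (CG31739), was also the most abundant, with 50.61, 46.60 and 50.01 FPKM in KO libraries and 37.54, 37.19 and 36.68 FPKM in WT libraries (log2 0.39, limma adjusted p = 2.75e-05). ArgRS-m overlaps mRpS9 on the other strand by 62 nt, and both fell.

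Among 10 genes of mitochondrial DNA upkeep and transcription, 5 were called lower and 2 higher, beside 32.1% and 30.1% of all tested genes, and the median log2 change was -0.13. The single-strand binding protein gene mtSSB averaged 44.3 ± 2.60 FPKM in KO and 60.6 ± 2.37 FPKM in WT (SD, n = 3 each; log2 -0.44, limma adjusted p = 2.66e-05). The transcription factor gene mtTFB2 (log2 -0.53, limma adjusted p = 0.000186) and the DNA polymerase gene tam (log2 -0.42, limma adjusted p = 0.000181) fell as well. TFAM, which packages mitochondrial DNA, was called lower (log2 -0.17, limma adjusted p = 0.0114) as was the termination factor gene mTTF (log2 -0.22, limma adjusted p = 0.0177). Both calls were lost with the length trend subtracted (adjusted p = 0.115 and 0.0824, with ranges over alternatives of 0.00298 to 0.115 and 0.00941 to 0.0824), and without KO replicate 1 (adjusted p = 0.0565 and 0.0769), and that of mTTF also without WT replicate 1 (adjusted p = 0.0614). The RNA polymerase gene mtRNApol was called higher (log2 0.13, limma adjusted p = 0.0403), a call lost under 10 of 16 alternatives (adjusted p 0.0375 to 0.505), including the removal of any 1 library but KO replicate 1. A further large fall was in bsf, the fly relative of LRPPRC, which stabilises mitochondrial messenger RNAs: it had 59.4, 56.0 and 58.2 FPKM in KO libraries and 134.9, 128.0 and 132.6 FPKM in WT libraries (log2 -1.17, SE 0.041, limma adjusted p = 1.5e-09). The exon length of bsf is 4457 nt, and the part of length in its fall was not tested.

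The messenger RNAs that the mitochondrial ribosome reads could not be followed. All 13 listed genes of the mitochondrial genome were at 0 FPKM in every library, including genes that every respiring cell uses, so these values are no measurement of their level.

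**Figure D5:**
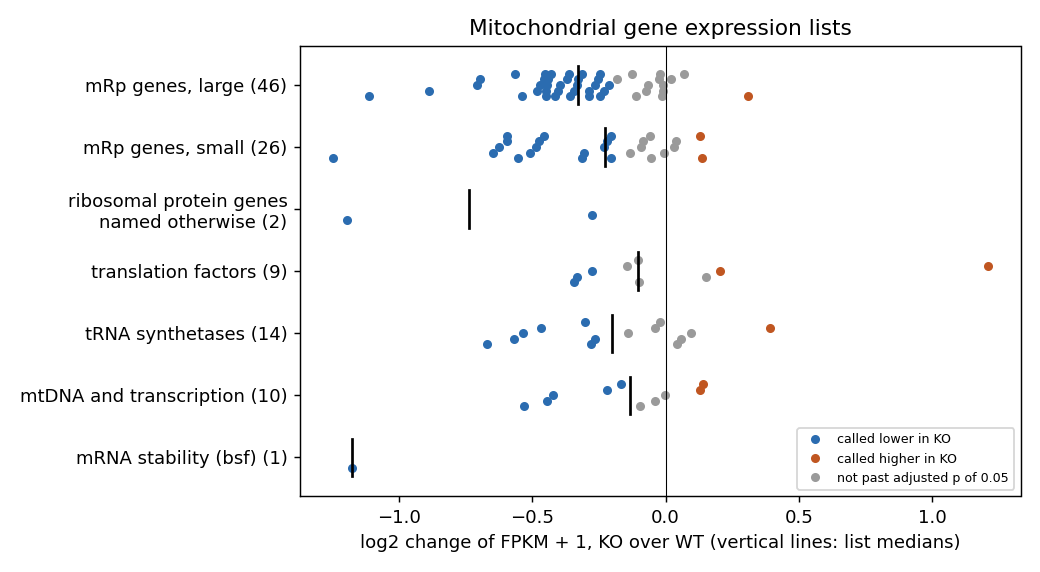
Log2 change of FPKM + 1, KO over WT, of the large and small subunit genes and of the tested genes of the other mitochondrial gene expression lists, with the number of genes in brackets and a vertical line at each list's median. Both subunits have medians below 0 (-0.33 and -0.23), the lists of factors, tRNA synthetases and mtDNA and transcription hold both falls and rises, and tko, bonsai and bsf all fell; mIF2 lies at the far right.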

How the data were processed

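The authors' deposited FPKM values per gene and library carry confidence bounds and the column names of Cufflinks, per the file headers. A deposited comparison table gives group means of normalised counts (signal), a ratio of them, the log2 of that ratio, and p-values before and after adjustment, per the file headers. Its log2 values run WT over KO and their sign was turned here. Named in the submitters' processing notes are Cufflinks 1.3.0, TopHat 1.4.1, BWA 0.6.1, DESeq 1.10.1 and HTSeq 0.6.1p1. No build, annotation or use of strand in counting is given in these sources. The library kit was directional, per the labels' protocols.

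Of 14210 genes, the 7259 whose mean reached 1 FPKM were tested on the log2(FPKM + 1) scale in limma 3.58.1 (R 4.3.3), with eBayes set to trend and robust and p-values adjusted by Benjamini-Hochberg. The test was tried on simulated data. A fold change on this scale understates that of low genes. A fragment number is the square of 2 times the FPKM divided by the gap between it and its upper bound. Where a gene had 1 listed start site identifier, 92.6% to 93.1% of numbers under 30 were within 0.02 of a whole number. At most 0.0413% of tested genes had equal FPKM in any pair of libraries.

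Members and lists were chosen with earlier results of these data known. Named genes were CG1091, the 8 largest changes each way and the 6 highest levels among members, the mRpS18 copies, mRpS30, mRpL10, mRpL12, and up to 6 called genes per related list; 4 listed names were unmatched. Genes given only as the end of a range were picked for that place. Exon lengths (BDGP6, Ensembl) covered 97.5% of tested genes. Coordinates are those of the files, whose build may differ, and some members have more exon length than span there. Tried as alternatives were pseudocounts 0.1 and 5, a filter at 5 FPKM and none, scaling by medians, quantile normalization, plain eBayes, a loess trend on length, the replicate number as a block, each library left out, and the authors' deposited table. Drawing used matplotlib 3.10.9 and Python 3.11.15.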

Additional observations from a re-analysis of the deposited data

How the results depend on the processing

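Over the alternatives the number of genes called in all stayed at 4004 to 4541 (4509 as reported), large subunit genes called lower at 26 to 35 (33; 35 with mRpS18A and mRpS30 counted there) and small subunit genes called lower at 11 to 17 (16). Both medians stayed below 0. With the length trend subtracted they moved to -0.17 and -0.12. Leaving out 1 library at a time gave -0.36 to -0.29 for the large and -0.27 to -0.22 for the small subunit. Members called higher numbered 3 as reported, 1 without a filter, 5 with the length trend subtracted, 0 in the authors' deposited table and 1 to 3 with 1 library left out: 1 without KO replicate 1, without WT replicate 1 or without WT replicate 3. Same-numbered libraries did not deviate together (correlations of -0.049 to 0.003 across genes, against -0.055 to 0.077 for other pairs), so the numbers were not taken as pairs. With the replicate block 4393 genes were called, 33 large and 15 small subunit genes lower and 2 members higher. Of 42 named genes, 28 kept call and direction throughout. Direction reversed with the length trend subtracted for mRpS31 (0.083), mRpL33 (0.011) and mRpL10 (0.032). Among genes not called, direction also turned with 1 library left out: values then ran from -0.045 to 0.028 for mRpS31, from -0.031 to 0.11 for mRpL16, from -0.056 to 0.089 for mRpS29 and from -0.0100 to 0.079 for mRpS18B, the lowest of the last 3 without KO replicate 2. Apart from the length trend, whose construction removes what members share with other short genes, the cause of these shifts was not tested. At 56 to 111 recovered fragments, mRpS18C in KO libraries has the least depth behind it.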

Other observations

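Rlc1, which the rule by symbol does not take but which current nomenclature calls mRpL47, had 22.4, 22.5 and 24.2 FPKM in KO libraries and 28.3, 30.3 and 27.6 FPKM in WT libraries, without overlap (log2 -0.31, limma adjusted p = 0.000541). It was chosen after its value was seen.

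By chromosome arm, 18 of the 20 members on 3R fell and 0 rose, where 34.0% of all tested genes on that arm fell. On 2L 6 of 12 members fell (34.3% of all tested genes there), on 2R 8 of 12 (31.7%), on 3L 10 of 17 (29.2%) and on X 7 of 11 (30.5%). The members on 3R had a median log2 change of -0.45 and a median exon length of 742.5 nt, and those on 2L had -0.21 and 889 nt. The arms were not compared in a test.

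Of the 72 mitochondrial ribosomal protein genes, 40 overlap at least 1 other listed gene by the files' spans, in 43 pairs, 40 of them on opposite strands and with a median overlap of 56 nt. Of the 30 members that fell and overlap another gene, 13 have a partner that also fell and 4 a partner that rose, beside 32.1% and 30.1% of all tested genes, so nothing is read from these counts. The share of all listed genes that overlap a neighbour was not computed. Among the 32 members with no overlap 19 fell and 2 rose (median log2 change -0.25), and among the 40 with an overlap 30 fell and 1 rose (median -0.32). mRpL17 shares 314 nt with CG34263, which averaged 17.8 FPKM in KO and 5.04 FPKM in WT (log2 1.66, limma adjusted p = 8.08e-07), while mRpL17 itself fell by 0.36 on the log2 scale. Whether the authors' counting used strand is not given, so values of such pairs are uncertain. mRpL13, called lower (log2 -0.31), shares 1185 nt of span with CG10602 on its own strand. CG10602 averaged 49.7 FPKM in KO and 55.0 FPKM in WT (log2 -0.14, limma adjusted p = 0.0168). Strand could not separate this pair, so the value of mRpL13 is uncertain as well.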
